A study of Mus musculus with 4 samples.

Results

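The axon guidance ligands and receptors measured here are the semaphorins, plexins, neuropilins, ephrins, Eph receptors, Slits, Robos, netrins and netrin receptors of the mouse. They were taken by gene symbol, without use of any measured value: 97 of the 39429 array probes, belonging to 75 of 20832 named genes, carried a symbol of these families. Of these, 93 probes of 73 genes were well above background and were tested, as 37 ligand genes, 35 receptor genes and Unc50. Unc50, Unc5cl and Plxna4os1 share a symbol stem with the families but are in neither class. Unc5cl and Plxna4os1 were not well above background on any array, and neither were the further probes of Ntn1 and Dcc. All but 2 of the 93 probes were well above background in both channels on all 4 arrays. The Ntng2 probe entered through the knockout channel alone, being well above background in wild type on 3 of 4 arrays, and the further Ntng1 probe through the wild-type channel alone, with 3 of 4 in knockout.

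The labels give Ndrg2-/- mice, with wild-type mice on the C57BL/6N background beside them, all males aged 3 months; total RNA came from the cerebral cortex. Ndrg2 encodes a protein of the NDRG family that is abundant in astrocytes. On each of 4 dual-colour Agilent arrays, 200 ng RNA of a sample labelled knockout (Cy5, red) was hybridised against a sample labelled wild type (Cy3, green). The deletion's position, the cells that carry it, and whether a replicate is 1 animal or a pool are not given in the labels, so p-values measure the spread between these 4 arrays. Knockout RNA was red on all 4 arrays, so genotype and dye cannot be told apart. In bulk cortex, fewer cells of a type and less RNA per cell cannot be told apart either.

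The Ndrg2 probe was higher, not lower, in the samples labelled knockout: its log2 ratio was 0.11, 0.37, 0.40 and 0.38, with a mean of 0.32 ± 0.14 (SD, n = 4; limma adjusted p = 0.0173). Without array 2 or 3 the adjusted p was 0.0795 and 0.0651. Because the deleted segment is not stated, this probe may lie outside it and then checks nothing. The value also does not show that the dyes are labelled the right way round, and a reversal would turn every higher and lower call, so every direction below rests on the labels. All 4 arrays were on 1 slide with 1 scan. The share of probes well above background ranged from 70.6% to 73.4% over channels and arrays, and no spot was saturated. Markers of cortical cells were present, with 9 of 9 excitatory neuron genes and 10 of 10 astrocyte genes tested.

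Axon guidance cues are secreted or cell-surface ligands that turn growth cones towards or away from a source, and in adult cortex many of them sit at synapses, on glia and on vessels. Semaphorins signal through plexins, with neuropilins as co-receptors for the secreted class 3 members. Ephrins bind Eph receptor tyrosine kinases on neighbouring cells, Slits bind Robo receptors, and netrins bind Dcc, neogenin and the Unc5 receptors.

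A gene is described as higher or lower in knockout only where the limma test, adjusted by Benjamini-Hochberg over all 27664 tested probes, gave p under 0.05. By that rule 9 of the 73 genes were higher and 5 were lower in knockout, together 19.2%, beside 15.0% of all 15759 genes tested (9.12% higher and 5.84% lower). The share of the guidance genes was near that of all genes, so the count by itself sets them apart from nothing. The 9 higher genes were Epha5, Ephb3, Sema6d, Sema4c, Sema5a, Plxnb2, Sema6a, Nrp1 and Sema4g, and the 5 lower genes were Plxnd1, Slit2, Sema6b, Ntng1 and Ntn3. No member reached 1.5 fold on all 4 arrays, the size that the series' design text names, against 0.0952% of all genes, and none had a mean past 1.5 fold, against 0.273% of all genes. The median log2 ratio over the 73 genes was 0.03, beside 0.01 over all genes, and the median size of the ratio was 0.07, beside 0.08. The ratio had the same sign on all 4 arrays for 29 of the 73 genes, 17 above and 12 below 0, against 42.7% of all genes.

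The split between higher and lower calls depended on scaling. Without background correction it was 8 higher and 7 lower. With arrays centred on their median and no loess fit it was 55 higher and 7 lower, but the median of all genes then sat at 0.28 and 82.3% of all genes passed. Of the 5 lower genes, Sema6b, Ntng1, Ntn3 and Plxnd1 then had ratios above 0. Relative to that median, all 9 higher genes stayed at or above it, by between 0.00 (Nrp1) and 0.62 (Ephb3), and all 5 lower genes stayed below it, at between -0.16 (Sema6b) and -0.34 (Slit2) from it. With the scanner software's processed signals 9 of the 14 genes passed, and Sema5a, Plxnb2, Sema4g, Ntng1 and Plxnd1 did not (limma adjusted p from 0.0519 to 0.0999). Leaving out array 1, 2, 3 or 4 kept 6, 7, 7 and 10 of the 14 calls. The share of all genes that passed was then 4.10%, 2.87%, 5.10% and 9.80%.

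**Figure D1:**
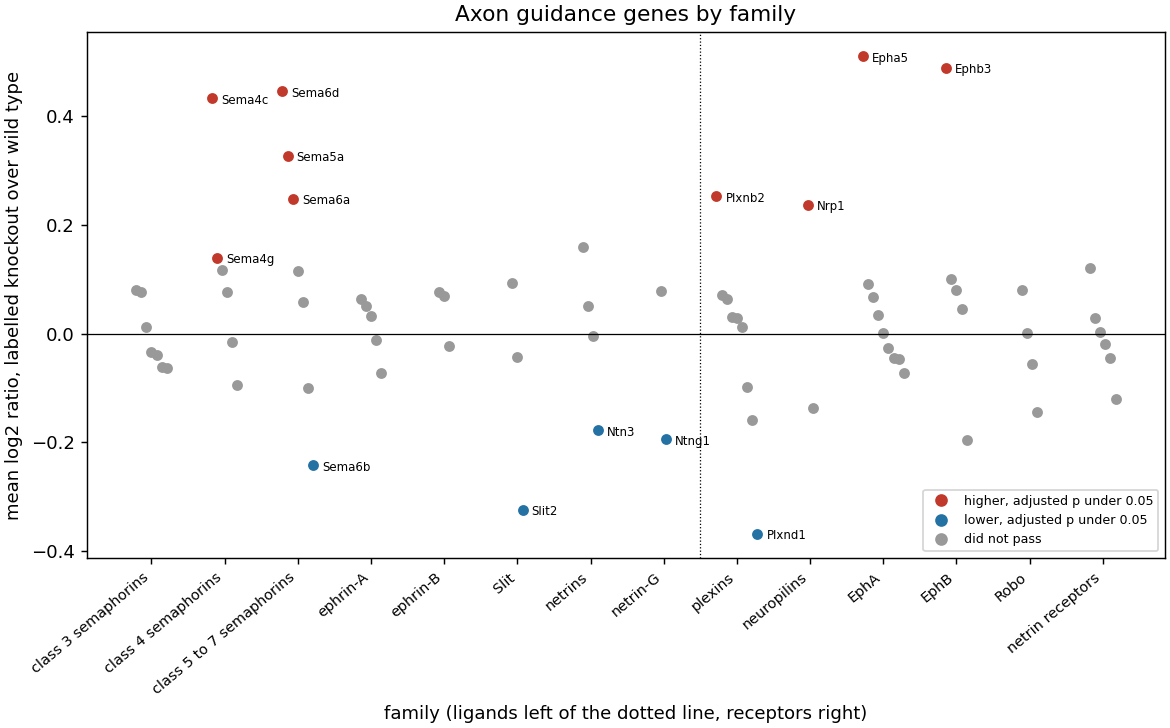
Mean log2 ratio of labelled knockout over wild type for each tested gene (points), by family, with ligand families left of the dotted line and receptor families right of it; red points were higher and blue points lower at an adjusted p under 0.05, and grey points did not pass. Of the 14 coloured points, 6 are class 4 to 7 semaphorins, and the class 3 semaphorins, ephrins, Robos and netrin receptors have none. Of all genes 15.0% passed, so families this small may hold none.

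Semaphorins made up 20 of the 37 ligands tested. Of these 20, 5 were higher and 1 was lower in knockout (30%), beside 24.3% of all ligands and 15.0% of all genes past the threshold. All 6 belonged to the classes 4 to 7, which are anchored in the membrane, where 6 of 13 passed, beside 15.0% of all genes, with a median log2 ratio of 0.12. The secreted ligands (class 3 semaphorins, Slits and netrins 1 to 5) had 2 of 14 genes past the threshold (14.3%, near the share of all genes), both lower, with a median of -0.02. The anchored side of this division held semaphorins alone. The ephrins (0 of 8 passed, median 0.04) and the netrin-G genes (1 of 2, lower) are also held at the cell surface but were in neither group. The counts therefore belong to semaphorin classes and not to anchored ligands as a whole. The division was made after the values were seen, so the counts describe these genes and are no test.

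Sema4c and Sema4g are class 4 semaphorins, transmembrane ligands that bind plexin-B2 in the mouse, and both they and Plxnb2 were higher in knockout. The 3 genes were taken from those that passed, so their passing together is no test. Sema4c had a log2 signal of 13.84, 13.72, 13.53 and 13.50 in the knockout samples of arrays 1 to 4, against 13.37, 13.32, 13.08 and 13.08 in wild type. Every knockout sample lay above every wild-type sample. The ratios of 0.47, 0.39, 0.45 and 0.42 gave a mean of 0.43 ± 0.03 (SD, n = 4; 1.35 fold; limma adjusted p = 0.00118). Of the 1576 genes with the highest signal, 13.8% were higher and 9.58% lower; 5 members were among them, and Sema4c was the only one of these 5 that passed.

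Sema4g had a log2 signal of 9.06, 9.15, 8.85 and 8.80 in knockout, against 8.88, 9.01, 8.73 and 8.68 in wild type. Knockout was the higher sample on each array, by 0.12 to 0.18, but the groups overlapped because arrays 1 and 2 were brighter than arrays 3 and 4 in both genotypes. The mean ratio was 0.14 ± 0.03 (SD, n = 4; limma adjusted p = 0.0498), and the call was lost without any 1 of the 4 arrays. Plxnb2, the receptor, had 12.08, 12.10, 11.92 and 11.79 in knockout, against 11.71, 11.86, 11.65 and 11.66 in wild type. It was higher in knockout on all 4 arrays, with overlapping groups and a mean ratio of 0.25 ± 0.10 (SD, n = 4; 1.19 fold; limma adjusted p = 0.0193). Without array 1, 2 or 3 its adjusted p was between 0.0657 and 0.0787, and it passed without array 4 alone. With processed signals, of the 3 genes only Sema4c passed.

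The promoters of these 3 genes, each higher in knockout, are shown for comparison with that of Slit2, the secreted ligand farthest below 0. Whether the 3 genes change together was not tested. Each window runs from 250 bases before to 50 bases after the first start that RefSeq lists (GRCm38.p6), on the gene's strand and 5′ to 3′. Capitals mark the GC box, the letters GGGCGG or their reverse complement CCGCCC; the E-box CACGTG, searched likewise, is in none of the 4.
Plxnb2, chr15:89180739-89181038, minus strand: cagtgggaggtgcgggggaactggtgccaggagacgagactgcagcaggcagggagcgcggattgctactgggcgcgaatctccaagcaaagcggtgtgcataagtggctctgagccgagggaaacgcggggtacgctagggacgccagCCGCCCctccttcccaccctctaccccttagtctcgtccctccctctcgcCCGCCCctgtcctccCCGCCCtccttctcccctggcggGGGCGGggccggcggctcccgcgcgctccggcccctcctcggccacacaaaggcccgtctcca
Sema4c, chr1:36558332-36558631, minus strand: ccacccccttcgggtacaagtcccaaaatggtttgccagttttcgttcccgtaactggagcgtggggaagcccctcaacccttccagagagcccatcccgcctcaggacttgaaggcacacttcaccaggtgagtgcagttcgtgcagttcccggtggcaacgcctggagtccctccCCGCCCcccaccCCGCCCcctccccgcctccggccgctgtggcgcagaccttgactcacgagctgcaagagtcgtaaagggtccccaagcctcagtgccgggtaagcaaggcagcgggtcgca
Sema4g, chr19:44989094-44989393, plus strand: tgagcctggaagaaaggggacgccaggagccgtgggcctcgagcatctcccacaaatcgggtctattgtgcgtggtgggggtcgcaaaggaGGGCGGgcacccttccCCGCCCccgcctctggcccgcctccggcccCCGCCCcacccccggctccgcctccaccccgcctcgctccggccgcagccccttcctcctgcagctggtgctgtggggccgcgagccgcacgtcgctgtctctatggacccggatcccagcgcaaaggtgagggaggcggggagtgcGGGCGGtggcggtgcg
Slit2, chr5:47982905-47983204, plus strand: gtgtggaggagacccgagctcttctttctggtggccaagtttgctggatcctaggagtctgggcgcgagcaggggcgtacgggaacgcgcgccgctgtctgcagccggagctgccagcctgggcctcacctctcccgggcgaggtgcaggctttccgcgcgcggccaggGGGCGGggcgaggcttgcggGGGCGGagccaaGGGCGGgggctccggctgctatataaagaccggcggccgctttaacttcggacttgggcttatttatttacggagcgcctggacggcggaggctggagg
The windows of Plxnb2 and Sema4g hold 4 GC boxes each, that of Slit2 holds 3 and that of Sema4c holds 2. Among the 32851 windows of all genes, 35.7% hold a GC box and 7.15% an E-box. The base composition was rich in G and C in all 4, at 70.3% for Plxnb2, 64.3% for Sema4c, 73.3% for Sema4g and 68.0% for Slit2, against a median of 52.7% over all windows. CpG pairs numbered 27 in Plxnb2, 19 in Sema4c, 30 in Sema4g and 30 in Slit2, against a median of 7. By these letters the window of the lower gene cannot be set apart from those of the 3 higher genes. Plxnb2 and Sema4c each have 2 listed starts.

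The other class 4 semaphorins, Sema4a, Sema4b, Sema4d and Sema4f, did not pass, and their mean ratios lay between -0.09 (Sema4a) and 0.12 (Sema4f). Sema4d, a ligand of plexin-B1, was at 0.08 ± 0.04 (SD, n = 4; limma adjusted p = 0.22), and Plxnb1 itself at 0.03 ± 0.04.

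**Figure D2:**
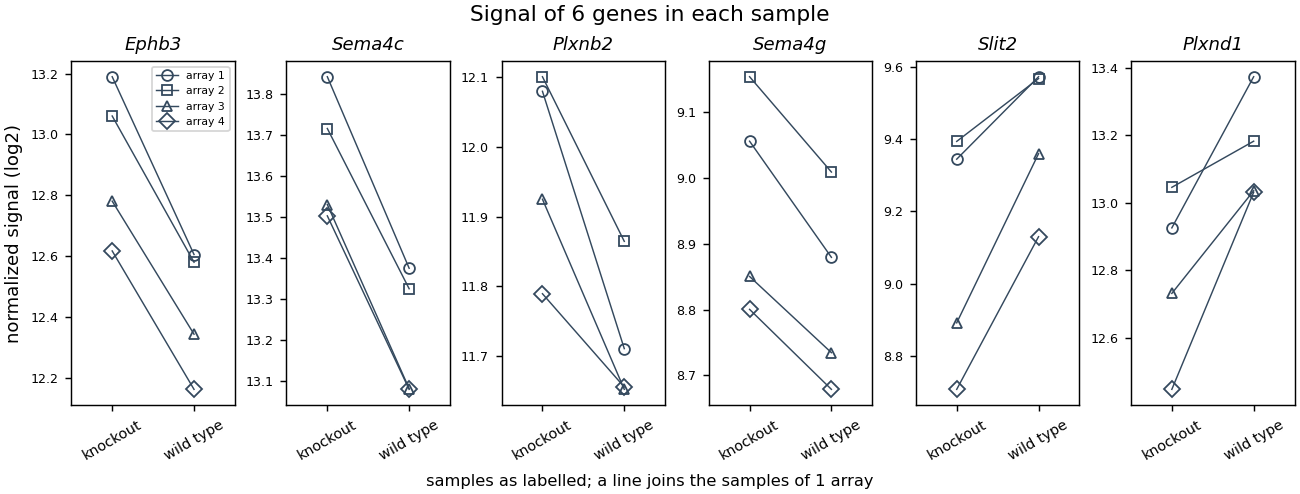
Normalized log2 signal of 6 genes in each sample, labelled knockout left and wild type right, with a line joining the samples of 1 array; each panel has its own axis. The lines fall to the right for Ephb3, Sema4c, Plxnb2 and Sema4g and climb for Slit2 and Plxnd1 on all 4 arrays, and the knockout and wild-type points are fully apart for Ephb3 and Sema4c alone among the 6.

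The class 6 semaphorins, transmembrane ligands of the A-type plexins, moved in both directions. Sema6d, a ligand of plexin-A1, had ratios of 0.41, 0.43, 0.41 and 0.54 (mean 0.45 ± 0.06, SD, n = 4; 1.36 fold; limma adjusted p = 0.00148). Its values on arrays 1 to 3 lay close together, with array 4 above them. A further, dimmer Sema6d probe gave 0.03 ± 0.07 (SD, n = 4), so the change was seen by 1 of its 2 probes.

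Sema6a, which binds plexin-A2 and plexin-A4, had ratios of 0.32, 0.25, 0.11 and 0.31 (mean 0.25 ± 0.10, SD, n = 4; limma adjusted p = 0.0201). It was higher in knockout on every array, with array 3 the lowest, and it did not pass without array 1, 2 or 4. Sema6b, a ligand of plexin-A4, went the other way, at -0.37, -0.22, -0.14 and -0.23 (mean -0.24 ± 0.10, SD, n = 4; limma adjusted p = 0.0209). It was lower in knockout on every array and did not pass without array 1 or 2 (adjusted p = 0.0674 and 0.0817), and with median centring alone its ratio was 0.12, above 0 but below the median of all genes. Sema6c did not pass, at -0.10 ± 0.13 (SD, n = 4). The A-type plexins themselves did not pass: Plxna1 stood at 0.01, Plxna2 at 0.06, Plxna3 at -0.10 and Plxna4 at 0.07, and the further Plxna4 probe at -0.12.

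Sema5a, a transmembrane semaphorin with thrombospondin repeats, had ratios of 0.49, 0.10, 0.44 and 0.28 (mean 0.33 ± 0.18, SD, n = 4; limma adjusted p = 0.0241). All 4 were above 0, but array 2 stood well below the others, and the gene passed only where array 2 was the array left out (0.40; adjusted p = 0.0311). Sema5b did not pass at 0.12 ± 0.14, and neither did Sema7a, the membrane-anchored class 7 member, at 0.06 ± 0.12 (SD, n = 4 each).

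None of the 7 class 3 semaphorins, the secreted members that act through neuropilins, passed the limma test (15.0% of all genes did). None had an unadjusted p under 0.05, but 7 genes are too few for such a count to set them apart. Their mean ratios lay between -0.06 and 0.08. Sema3b was the farthest from 0, at 0.02, -0.08, 0.22 and 0.16 (mean 0.08 ± 0.14, SD, n = 4; adjusted p = 0.369). No class 3 gene had the same sign on all 4 arrays.

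The 5 ephrin-A and 3 ephrin-B genes, ligands of the Eph receptors, likewise had none past the limma test (15.0% of all genes passed). None had an unadjusted p under 0.05, and these genes too are few for such a count. The means of the ephrin-A genes lay between -0.07 (Efna2) and 0.06 (Efna4). Efnb2 stood at 0.08 ± 0.08 and Efnb3 at -0.02 ± 0.08 (SD, n = 4 each). Efnb1 had the widest spread of all 73 genes, at 0.45, 0.34, -0.22 and -0.29 (mean 0.07 ± 0.38, SD, n = 4). It was above 0 on arrays 1 and 2 and below 0 on arrays 3 and 4, so its mean describes none of them.

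Slit2, a secreted repellent of the Slit family, had a log2 signal of 9.34, 9.39, 8.89 and 8.71 in knockout, against 9.57, 9.57, 9.36 and 9.13 in wild type. Knockout was the lower sample on every array, by less on arrays 1 and 2 than on arrays 3 and 4, and the groups overlapped. The ratios of -0.23, -0.17, -0.47 and -0.42 gave a mean of -0.32 ± 0.14 (SD, n = 4; 1.25 fold lower; limma adjusted p = 0.0176). Without array 3 the adjusted p was 0.0621. Slit1 and Slit3 did not pass, at -0.04 ± 0.20 and 0.09 ± 0.07 (SD, n = 4 each).

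Of the 4 netrins, secreted cues related to laminins, Ntn3 was lower in knockout, at -0.14, -0.23, -0.21 and -0.13 (mean -0.18 ± 0.05, SD, n = 4; limma adjusted p = 0.0297). Its ratios were close together on all 4 arrays; it passed without array 4 and did not pass without any 1 of the others, and with median centring alone its ratio was 0.05. Ntn1 stood at -0.00 ± 0.17, Ntn4 at 0.05 ± 0.14 and Ntn5 at 0.16 ± 0.36 (SD, n = 4 each), the last with array values from -0.23 to 0.58.

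Ntng1 encodes netrin-G1, a lipid-anchored relative of the netrins that does not bind Dcc but binds the synaptic protein NGL-1, the product of Lrrc4c. It had ratios of -0.23, -0.10, -0.27 and -0.18 (mean -0.19 ± 0.07, SD, n = 4; limma adjusted p = 0.0302). The call was lost without any 1 of the 4 arrays, its further probe gave -0.01 ± 0.12, and with median centring alone the ratio was 0.08. Lrrc4c did not pass, at -0.14 ± 0.07 (SD, n = 4; limma adjusted p = 0.0657), and Ntng2 stood at 0.08 ± 0.12.

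**Figure D3:**
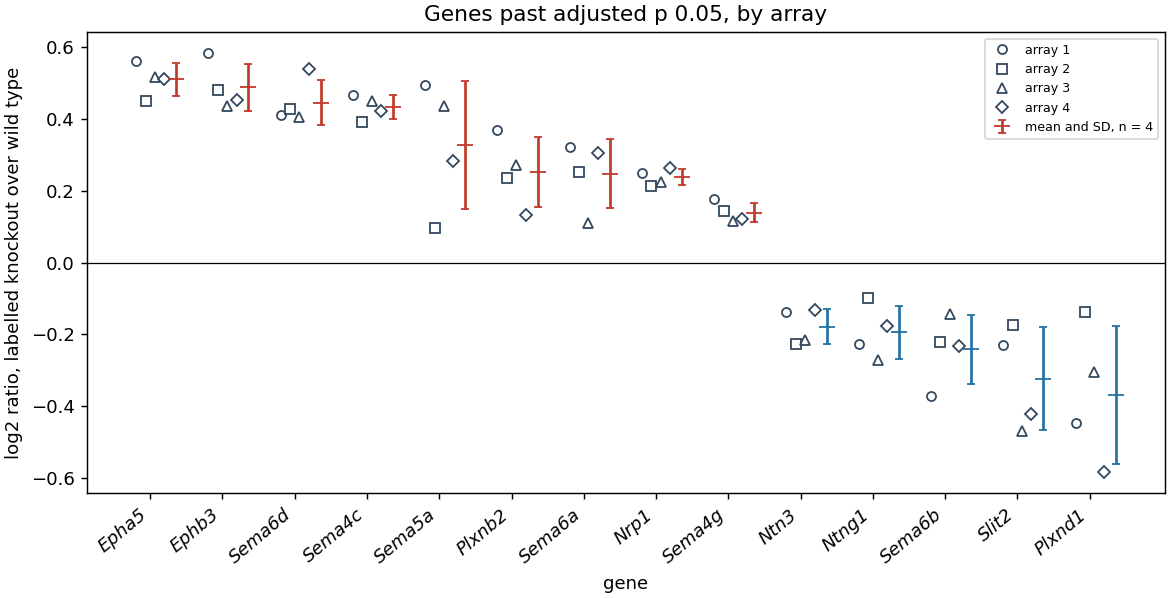
Log2 ratio of labelled knockout over wild type on each array (open symbols) for the 14 genes past adjusted p 0.05, with the mean and SD over the 4 arrays beside them (red higher, blue lower). Each gene's 4 symbols lie on 1 side of 0, although with median centring alone the means of Ntn3, Ntng1, Sema6b and Plxnd1 were above 0; Sema4c and Nrp1 have the tightest groups among the genes above 0.20, and Sema5a and Plxnd1 the widest.

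Among the receptors, 4 of 35 genes were higher in knockout and 1 was lower (14.3%, near the 15.0% of all genes). The plexins, which are receptors with an intracellular GTPase-activating domain, had 1 gene in each direction among 9 (22.2%). Plxnd1, the receptor of Sema3e and strongly linked to vessels, had a log2 signal of 12.93, 13.05, 12.73 and 12.45 in knockout, against 13.37, 13.18, 13.04 and 13.03 in wild type. Knockout was lower on every array, but its brightest sample, on array 2, was above the 2 dimmest wild-type samples. The ratios of -0.45, -0.14, -0.30 and -0.58 gave a mean of -0.37 ± 0.19 (SD, n = 4; 1.29 fold lower; limma adjusted p = 0.0202).

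Plxnd1 rested on 1 of its 2 probes, since the further one gave -0.01 ± 0.17 (SD, n = 4). With median centring alone the ratio was 0.05, against the all-gene median of 0.28, and the gene did not pass without array 1 or 3 (limma adjusted p = 0.0712 and 0.0573). Sema3e, its ligand, was at -0.03 ± 0.09 (SD, n = 4). Plxnb3 missed the threshold at -0.16 ± 0.08 (SD, n = 4; limma adjusted p = 0.0577), and Plxnc1 was at 0.03 ± 0.13.

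Nrp1, the co-receptor of class 3 semaphorins that also binds VEGF, was higher in knockout at 0.25, 0.21, 0.22 and 0.26. These 4 values were the closest together of the 14 genes that passed (mean 0.24 ± 0.02, SD, n = 4; 1.18 fold; limma adjusted p = 0.0113). Without array 2 the adjusted p was 0.0562, and under median centring alone Nrp1 lay at the all-gene median. Nrp2, the related co-receptor, had 0.14, -0.09, -0.31 and -0.29 (mean -0.14 ± 0.21, SD, n = 4; limma adjusted p = 0.256). Sema3a, a ligand of Nrp1, was at -0.04 ± 0.10 (SD, n = 4).

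The largest ratios of all members were those of 2 Eph receptor tyrosine kinases. Epha5, a receptor of the ephrin-A ligands in forebrain neurons, had a log2 signal of 12.04, 11.86, 11.55 and 11.53 in knockout, against 11.48, 11.41, 11.04 and 11.02 in wild type. All knockout samples lay above all wild-type samples, with ratios of 0.56, 0.45, 0.52 and 0.51 (mean 0.51 ± 0.05, SD, n = 4; 1.42 fold; limma adjusted p = 0.000786). The further Epha5 probe was above 0 on all 4 arrays, at 0.36, 0.14, 0.02 and 0.09, but its mean of 0.15 ± 0.14 did not pass (SD, n = 4; limma adjusted p = 0.12). Efna5, a ligand of Epha5, did not pass at 0.03 ± 0.14.

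Ephb3, a receptor of the ephrin-B ligands, had a log2 signal of 13.19, 13.06, 12.78 and 12.62 in knockout, against 12.61, 12.58, 12.34 and 12.16 in wild type. Every knockout sample again lay above every wild-type sample, with array 1 showing the widest gap. The ratios of 0.58, 0.48, 0.44 and 0.45 had a mean of 0.49 ± 0.07 (SD, n = 4; 1.40 fold; limma adjusted p = 0.00109). Together with Sema4c, these 2 receptors were the only members whose group signals did not overlap, 3 of 73 against 3.39% of all genes.

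The remaining 12 Eph receptors did not pass. EphA genes other than Epha5 lay between -0.07 (Epha4) and 0.09 (Epha2), and EphB genes other than Ephb3 between -0.20 (Ephb6) and 0.10 (Ephb4). Ephb6, which lacks kinase activity, was lower on arrays 1, 2 and 4 and near 0 on array 3 (limma adjusted p = 0.0717). Epha10, another kinase-inactive member, had 0.19, 0.29, -0.22 and -0.26 and so divided between the arrays as Efnb1 did. Its further probe had 0.09, 0.20, -0.02 and -0.16, with the same signs.

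Of the 4 Robo genes, receptors of the Slits, none passed limma's test (15.0% of all genes did) and 1 had an unadjusted p under 0.05. That was Robo2, below 0 on all 4 arrays at -0.19, -0.15, -0.17 and -0.06. Its mean was -0.14 ± 0.06 (SD, n = 4, limma adjusted p = 0.0565), with a further probe at -0.12 ± 0.11. Without background correction Robo2 passed, at -0.16 (limma adjusted p = 0.0461). Under median centring alone Robo2 stood at 0.22, below the all-gene median. Robo1 was at -0.06 ± 0.12, Robo3 at 0.08 ± 0.13 and Robo4, the endothelial member, at 0.00 ± 0.23 (SD, n = 4 each).

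None of the 6 netrin receptors passed limma's test (15.0% of all genes did) and 2 had an unadjusted p under 0.05, Dcc and Unc5d. Dcc, the attractive netrin receptor, had ratios of 0.07, 0.13, 0.10 and 0.19 on the probe with the higher signal and of -0.15, -0.06, -0.17 and -0.20 on the other. Each Dcc probe thus kept its sign on all 4 arrays and the 2 signs were opposite. Their means were 0.12 ± 0.05 and -0.15 ± 0.06 (SD, n = 4; limma adjusted p = 0.0858 and 0.0571). The 2 probes were far apart in signal. In wild type the first had a log2 signal of 16.76 to 17.04, with 0.24% of all genes tested brighter. The other had 6.68 to 6.79, near the low end of the member probes. Whether the 2 probes measure Dcc equally well was not tested, and no direction can be given for Dcc. Unc5d was at -0.12 ± 0.09 (SD, n = 4; adjusted p = 0.123). Neo1, which encodes neogenin, was at -0.02 ± 0.13, and Unc5a, Unc5b and Unc5c lay between -0.04 and 0.03.

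**Figure D4:**
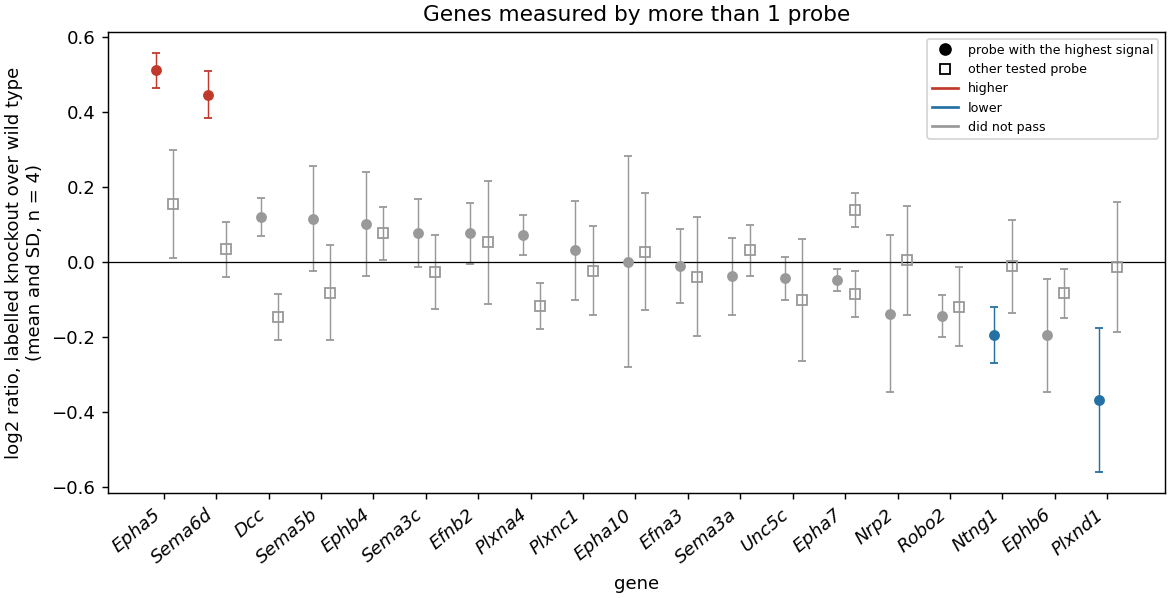
Mean log2 ratio of labelled knockout over wild type with its SD over 4 arrays, for the 19 genes with more than 1 tested probe; filled circles are the probe with the highest signal and open squares the other probes, coloured by whether the probe passed. The coloured circles of Epha5, Sema6d, Ntng1 and Plxnd1 each stand apart from a grey square nearer to 0.

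Agreement between probes of a gene was partial. The 19 genes with more than 1 tested probe had 20 other probes, of which 12 shared the sign of the gene's brightest probe. None of the 20 passed limma's test (12.9% of all probes did), and 5 had an unadjusted p under 0.05. All 4 genes past the threshold that had a further probe (Epha5, Sema6d, Plxnd1 and Ntng1) had it nearer to 0, and the remaining 10 rested on 1 probe each. The further probes of these 4 were dimmer, because the brightest probe was the one used. Their log2 signal in knockout was 10.06 to 10.45, 6.86 to 7.12, 9.38 to 10.07 and 6.33 to 6.63 in that order. On the probes used it was 11.53 to 12.04, 9.14 to 9.67, 12.45 to 13.05 and 8.82 to 9.72. Whether low signal brought these ratios nearer to 0 was not tested. Epha7 had 3 probes, at -0.05, -0.09 and 0.14. The probe with the highest signal was used for each gene throughout, so for the 4 genes the call holds for that probe only.

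Ligands and receptors were then compared as classes. Of 37 ligands, 5 were higher and 4 lower in knockout (24.3%), and of 35 receptors, 4 were higher and 1 lower (14.3%), with 15.0% of all genes past the same threshold. The median log2 ratio was 0.05 for ligands and 0.01 for receptors, beside 0.01 for all genes. On arrays 1 to 4 the ligand median was 0.01, 0.03, 0.04 and 0.00, and the receptor median was 0.07, -0.02, -0.00 and 0.06. The difference, ligand minus receptor, was thus -0.06, 0.05, 0.05 and -0.06, below 0 on arrays 1 and 4 and above 0 on arrays 2 and 3, with a mean of -0.01 ± 0.07 (SD, n = 4). The classes did not differ by more than the spread between arrays. Their spread over genes was also alike, with an interquartile range of 0.123 for ligands and 0.128 for receptors.

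**Figure D5:**
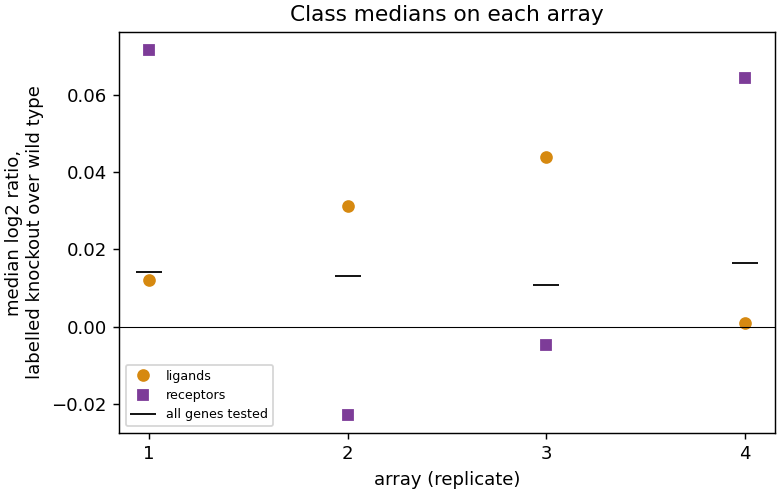
Median log2 ratio of labelled knockout over wild type on each array for the 37 ligand genes (circles), the 35 receptor genes (squares) and all tested genes (bars). Ligands lie below receptors on arrays 1 and 4 and above them on arrays 2 and 3.

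Set side by side as known binding partners, the plexin-B2 set was the only one listed in which ligand and receptor both passed. Partners were listed starting from the genes that passed, and not every known partner was listed. The result therefore describes the list and is no test. Sema4c and Sema4g were higher with Plxnb2. Elsewhere 1 side passed and the other did not: Sema6d, Sema6a, Sema6b and Sema5a with A-type plexins, Slit2 with Robo1 and Robo2, Plxnd1 with Sema3e, Nrp1 with Sema3a, Ntn3 with Dcc and Neo1, Ntng1 with Lrrc4c, Epha5 with Efna5, and Ephb3 with the ephrin-B genes. Whether the partners differ from each other was not tested. The ratios of the 73 genes correlated between arrays at Pearson r of 0.424 to 0.719, a description across genes that are not independent and that share dye orientation on all 4 arrays.

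Of 70 other genes of axon guidance signalling, which act downstream of these receptors or beside them, 68 were tested, and Rgmb and Draxin were not among the genes tested. Of the 68, 9 were higher and 4 lower in knockout (19.1%, near the 15.0% of all genes), with a median of 0.03 beside 0.01 for all genes. Dpysl5, a CRMP protein that acts on the growth cone cytoskeleton, had 0.50, 0.50, 0.50 and 0.42 (mean 0.48 ± 0.04, SD, n = 4; limma adjusted p = 0.00088). Itsn1, an endocytic scaffold and exchange factor that couples to EphB receptors, was at 0.46 ± 0.04 (SD, n = 4; limma adjusted p = 0.000926), but its 5 other probes lay between -0.00 and 0.14 and none passed.

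Vav3, an exchange factor that couples to Eph receptors, was at 0.34 ± 0.16 (SD, n = 4; limma adjusted p = 0.0187). Abl1, a kinase of the Robo and Eph pathways, was at 0.29 ± 0.10 (SD, n = 4; adjusted p = 0.0127), with a further probe at -0.03. Lower in knockout were Rnd1, a GTPase that binds plexins, at -0.24 ± 0.10, and Fyn, a kinase of semaphorin and netrin signalling, at -0.24 ± 0.14 (SD, n = 4 each; limma adjusted p = 0.0231 and 0.0379). Nrcam, an adhesion molecule that associates with neuropilins, was at -0.24 ± 0.04, and Cdc42, a regulator of the actin cytoskeleton, at -0.14 ± 0.03 (SD, n = 4 each; limma adjusted p = 0.0132 and 0.0469). With median centring alone these 4 stood above 0, at 0.14, 0.07, 0.24 and 0.31. Of the 8 pathway genes named, Dpysl5 and Itsn1 passed whichever array was left out. Cdc42 lost its call without any 1 array, Vav3 without array 1 or 2, Abl1 without array 2, Rnd1 without array 1, 3 or 4, Fyn without array 1, 2 or 3, and Nrcam without array 2 or 3.

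The clearest marker list was that of meningeal fibroblasts. Of its 10 genes, all tested and all above 0, 9 were higher in knockout, where 9.12% of all genes were higher and 5.84% lower, among them Lum at 0.59 and Col1a1 at 0.52. The median of the list was 0.46, with array medians of 0.50, 0.47, 0.25 and 0.64, and its summed signal ran from 9770 to 13600 in knockout, against 6634 to 11635 in wild type. The part of meningeal tissue in the ratios of the guidance genes was not tested. The other lists had at most 3 genes past the threshold each, and the same shares of all genes stand beside them. Excitatory neuron genes had 3 of 9 higher (median 0.16), and thalamic genes 2 of 4 higher (median 0.23). Astrocyte genes had 1 of 10 higher (median 0.15), with a summed signal of 194988 to 233468 in knockout against 169243 to 208324 in wild type. At an unadjusted limma p under 0.05 stood 7 excitatory neuron, 3 thalamic and 6 astrocyte genes, all above 0.

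For vessels, which express Plxnd1, Nrp1 and Robo4 among other cells, 1 of 8 endothelial genes was higher (median 0.03), and none of 8 mural genes passed limma's test although 3 had an unadjusted p under 0.05 (median 0.12). Microglial genes had 2 of 9 higher, oligodendrocyte genes 1 higher and 1 lower of 10, and inhibitory neuron genes 1 higher and 1 lower of 8. Hippocampal genes had 1 of 4 lower. In these 4 lists 3, 4, 4 and 3 genes had an unadjusted limma p under 0.05, in that order, as did 4 endothelial genes. No gene passed limma's test among 6 precursor, 4 choroid plexus or 5 striatal genes, where 2, 2 and 0 had an unadjusted p under 0.05. Their part in the guidance genes' ratios was not tested either.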

How the data were processed

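Spot intensity values were deposited by the authors as scanner output for each of 4 arrays, made with Agilent Feature Extraction (the file headers give version 11.0.1.1, while the submitters' processing notes list 10.7.3.1). The files also hold a log10 ratio of red over green, per the file headers. A deposited log2 table equalled the log2 ratio of the software's processed signals (r = 1), so its scale and direction follow from the scanner files; its array medians were 0.04, 0.03, -0.04 and -0.04, so it is not centred exactly on 0.

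Median spot signals were background-corrected with normexp (offset 50) and normalized within each array by loess, with 1377 control spots per array given no weight and 802 outlier spots left out (limma 3.58.1, R 4.3.3). Red was divided by green, knockout over wild type by the labels' dyes. Replicate spots of 399 probes were averaged. A probe was kept where, on all 4 arrays, a share of at least 0.5 of its spots was marked well above background in the same channel, leaving 27664 of 39429 probes. An intercept was fitted per probe with empirical Bayes moderation (3 residual and 4.47 prior degrees of freedom); a gene took its probe with the highest mean intensity. Symbols came from accessions through RefSeq (GRCm38.p6). The number of arrays limits the precision. The code was tested on simulated ratios.

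The members were taken by a symbol rule that used no measured value, but the rule, gene lists and tests were chosen with earlier results of these data known. Named genes were every member past the threshold, the member farthest from 0 in a family without one, members whose probes disagreed with one of them past the threshold, binding partners of the genes past the threshold, and up to 4 other pathway genes in each direction; genes named beyond these were chosen after their values were seen. Alternatives were processed signals, median centring without loess, no background correction, Aquantile scaling, no filter or a filter in both channels, the mean of a gene's probes, trended and robust moderation, the deposited table, and leaving out each array.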

Additional observations from a re-analysis of the deposited data

Results flagged for a closer look

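Among 44 sets of 4 array values examined, 5 held a value far from the other 3 by Dixon's gap over range; chance alone gives about 1 in 20 such sets. The gap made up 0.832 of the range for Sema6d, where array 4 (0.54) stood above 0.41, 0.43 and 0.41. It was 0.836 for the ephrin gene Efna5, where array 1 (-0.17) stood below 0.13, 0.10 and 0.08. For Ndrg2 the ratio on array 1 (0.11) stood below the other arrays, with a gap of 0.897 of the range. For Dpysl5 the gap was 0.931, with array 4 (0.42) below the others, and for Abl1 it was 0.847, with array 1 (0.44) above them. The values come from different arrays, 3 from array 1 and 2 from array 4.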

How the results depend on the processing

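Epha5, Ephb3, Sema6d and Sema4c passed under all 13 alternatives, and so did Dpysl5 (log2 ratios from 0.24 for Sema6d to 0.90 for Ephb3). The 13 were not separate checks. Aquantile scaling left every ratio as it was, and the deposited table repeated the processed signals. For a gene with 1 tested probe, the mean of its probes was the same ratio again. Of the 14 member calls, 9 remained with processed signals and 13 without background correction. The lower calls fell to 3 with processed signals, with the deposited table and with the mean of a gene's probes, the last with a ligand median of 0.025. Median centring without loess gave 55 higher calls, 5 genes past 1.5 fold, a ligand median of 0.28 and a receptor median of 0.27, with the all-gene median at 0.28. There 17 of 41 named genes changed sign: Ntn3 0.051, Ntng1 0.080, Sema6b 0.12, Plxnd1 0.053, Efna2 0.070, Robo2 0.22, Rnd1 0.14, Fyn 0.072, Nrcam 0.24, Cdc42 0.31, Plxna3 0.19, Sema3e 0.16, Robo1 0.27, Sema3a 0.28, Neo1 0.29, Lrrc4c 0.30 and Efnb3 0.35. Relative to that median 12 of the 17 kept their sign, and Cdc42, Sema3a, Neo1, Lrrc4c and Efnb3 did not. Robo2 gained a call without background correction (-0.16; adjusted p = 0.0461). Plxna1 was at -0.0050 without background correction, Plxna4 at -0.023 with the mean of probes, and Dcc at -0.058 with processed signals and with the deposited table and at -0.013 with the mean of probes. Leaving out 1 array in turn, Plxna1 ran from -0.050 to 0.047, Neo1 from -0.065 to 0.023, Efnb1 from -0.058 to 0.19 and Efnb3 from -0.039 to 0.017. Leaving out 1 array gave 5 to 6 higher calls, 1 to 4 lower calls and 0 genes past 1.5 fold. The ligand median was 0.018 to 0.048 and the receptor median 0.0069 to 0.027. The ligand minus receptor difference was -0.0056 to 0.041, against 0.038 with all arrays. This is the difference between class medians of the gene means. It is another measure than the mean of the differences on each array, which was -0.01. Fewer arrays leave fewer degrees of freedom; the cause of the other changes was not tested. No paired analysis was possible because each ratio already pairs the samples of 1 array. The design of 4 arrays with 1 dye orientation limits all values.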

Other observations

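Some guidance genes had a knockout over wild-type ratio on arrays 1 and 2 opposite in sign to that on arrays 3 and 4, so that their means near 0 hid sizeable values. Flrt3 and Flrt2 encode transmembrane proteins that bind Unc5 receptors, and they showed the reverse of the order seen for Efnb1 and Epha10. Flrt3 had log2 ratios of -0.30, -0.27, 0.30 and 0.39 on arrays 1 to 4, and Flrt2 had -0.44, -0.30, 0.01 and 0.38. Neither passed limma's test (adjusted p = 0.888 and 0.659). Over all tested probes the ratios of arrays 1 and 2 correlated at Pearson r = 0.688 and those of arrays 3 and 4 at 0.547, against 0.356 to 0.461 for the other pairs. Over the 73 guidance genes r was 0.719 for arrays 3 and 4 but 0.491 for arrays 1 and 2, within the 0.424 to 0.530 of the other pairs, so the guidance genes as a whole do not set arrays 1 and 2 apart. These are descriptions across probes or genes, which are not independent, and the genes were picked after their values were seen.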
